A study of Mus musculus with 5 samples.

Results

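The prostate tumors of castrated and intact TripleTg mice were examined for 10 long noncoding RNAs, taken by symbol from a count table of 24527 genes: Malat1, Neat1, Meg3, H19, Kcnq1ot1, Gas5, Snhg1, Snhg3, Snhg12 and Epb41l4aos. All 10 had a row in the table and all 10 passed the filter on low counts, a CPM (read counts scaled to library size) above 1 in at least 2 samples, which 14612 genes met. Bulk RNA-seq of total RNA depleted of ribosomal RNA had been made from fresh prostate tissue of 3 castrated and 2 intact mice, with no other group. Every mouse carried hHGFtg-hMETtg-BCAT-PBCre, that is, a human HGF transgene expressed throughout the body, a human MET transgene and a stabilized β-catenin allele, the last 2 of which were opened in prostate epithelium by Cre recombinase under the probasin promoter. Both C57BL/6 and C3H SCID contributed to their background, according to the methods of the study. For such mice its results give an age of 4 months at castration and 8 months at examination, beside intact mice of matched age. The labels of these samples give no age. Probasin is an androgen-responsive promoter, and the expression of the human transgenes was not analysed here. The samples are called castrated 1, 2 and 3 and intact 1 and 2 after their replicate numbers. Sequencing gave 28015507, 18951782 and 20492061 gene counts for the castrated samples in that order, while intact 1 had 21560355 and intact 2 had 22853501.

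Long noncoding RNAs are transcripts that are processed like messenger RNA but code for no protein, and many of them stay in the nucleus. Malat1 lies in nuclear speckles, which store splicing factors, and Neat1 is the scaffold of paraspeckles, bodies built of that RNA and a set of RNA-binding proteins. Meg3, H19 and Kcnq1ot1 are expressed from one parental allele at imprinted loci, Meg3 and H19 from the maternal copy and Kcnq1ot1 from the paternal copy. Gas5, Snhg1, Snhg3 and Snhg12 carry small nucleolar RNAs (snoRNAs) in their introns, and Epb41l4aos is grouped with them here as a snoRNA host. The snoRNAs guide chemical modification of ribosomal RNA, whereas the spliced host transcripts are short-lived and, when they are translated, are degraded by nonsense-mediated decay. Gas5 is the classical example and was named for its accumulation in growth-arrested cells. Many host genes start transcription in a run of pyrimidines of the kind that also marks the genes of ribosomal proteins.

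The start sites of the snoRNA hosts are shown because this run is what the group is known to share in sequence. Each window below holds 15 bases before and 15 bases from the annotated start in RefSeq's GRCm38.p6, 5′ to 3′ on the strand of the gene, and capitals mark an unbroken run of C and T that begins with C, is at least 5 letters long and lies within the central 20 bases. Gas5 has a second annotated start upstream, at position 161034601, where no such run was present. The range over which Gas5 is counted begins at 161034916, between that start and the start of the window shown, 161035166. The windows lie at chr1:161035151-161035180 for Gas5 and chr19:8723472-8723501 for Snhg1, both on the plus strand. Those of the other two genes lie at chr4:132308663-132308692, plus strand, for Snhg12 and chr4:132353672-132353701, minus strand, for Snhg3.
Gas5: agccgccatctcagCCTTTCggagctgtgc
Snhg12: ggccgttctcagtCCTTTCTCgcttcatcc
Snhg3: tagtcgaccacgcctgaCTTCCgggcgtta
Snhg1: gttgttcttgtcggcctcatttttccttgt
The run had 8 letters in Snhg12, a length that 5.6% of the promoter windows examined reach. It had 6 letters in Gas5, reached by 15.1%, and 5 letters in Snhg3, reached by 25.5%. In Snhg1 the longest run that begins with C had 4 letters. Such a run of 5 letters or more stood at 3 of the 5 start windows of these genes and at 5 of 15 windows (33.3%) of other noncoding snoRNA hosts. It stood at 32 of 67 windows (47.8%) of ribosomal protein genes and at 2 of 13 windows (15.4%) of protein-coding snoRNA hosts. Of the 32851 promoter windows examined, 25.5% held such a run. On the opposite strand the shares were 0 of 5, 3 of 15, 12 of 67 and 3 of 13 windows in the same order, and 28.3% of all windows. Of 4 windows of Malat1, Meg3 and Kcnq1ot1, 1 held a run, at Meg3, and 3 of the 4 held one on the opposite strand. A match describes the letters only, and no window of Neat1, H19 or Epb41l4aos was examined.

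The sample intact 2 stood apart from the other 4 samples. The CPM of Tgm4, a secreted protein of the mouse prostate, was 1347 in intact 2 and between 0.0487 and 0.419 elsewhere. The summed CPM of 77 ribosomal protein genes was 135018 in intact 2, against 46365 in intact 1 and 43828, 39107 and 44977 in the castrated samples. Krt8, a keratin of luminal epithelium, was the most abundant of 8 luminal markers, which summed to 3227, 3137 and 3849 CPM in the castrated samples and 4561 and 3886 CPM in the intact samples, so luminal epithelium was present in all 5 samples. Of 6 prostate secretory markers, Msmb was at 0 in all samples and the sum was 1.40, 0.483 and 90.1 CPM in castrated samples and 1.79 and 1419 CPM in intact samples. Since intact 2 is 1 of only 2 intact samples, values without it are given below for the long noncoding RNAs and the main gene lists where they differ.

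Across the 10 long noncoding RNAs, every fitted log2 fold change of castrated over intact tissue was below 0 in the fit of all 5 samples, with a median of -1.32. Without intact 2 the median was -0.69 and 9 of the 10 were below 0, and without intact 1 it was -1.51, again with 9 below 0. The median over all 14612 genes was -0.027, and 52.1% of them had a value below 0. None of the 10 passed an adjusted p under 0.05 with an absolute log2 fold change above 1 in edgeR's quasi-likelihood test, and neither did any other gene, so the share called was 0% and the smallest Benjamini-Hochberg adjusted p was 0.320. At an unadjusted p under 0.05, 5 of the 10 were lower in castrated tissue and 0 were higher, where 5.93% of all genes were lower and 8.29% were higher. In the same 5 (Kcnq1ot1, Snhg1, Snhg3, Snhg12 and Epb41l4aos) all castrated samples lay below both intact samples, as they did in 16.1% of all genes. Without intact 2 the count was 4, as Snhg12 and Epb41l4aos dropped out and Meg3 came in, beside 1970 genes in either direction against 2079 with all samples. Without intact 1 it was 8, as Neat1, H19 and Gas5 came in, beside 3181 genes. DESeq2 called 3 of the 10 lower, Snhg1, Snhg3 and Epb41l4aos, where it called 1.96% of 14570 genes lower and 6.79% (989 genes) in either direction. In bulk tissue, fewer cells of a type and less RNA per cell cannot be told apart.

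**Figure D1:**
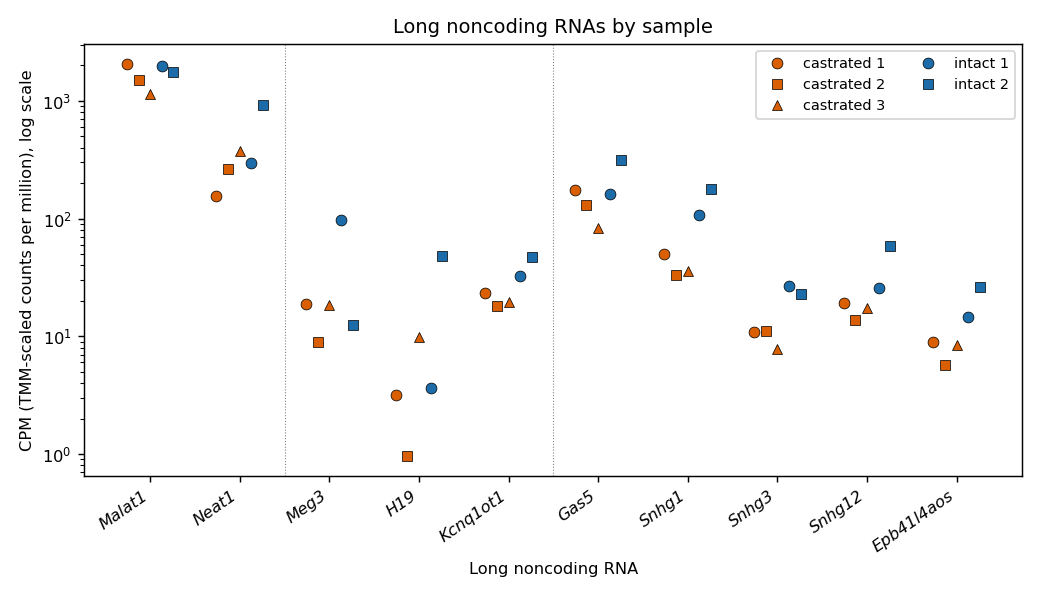
CPM of the 10 long noncoding RNAs on a log axis, with 1 point per sample, orange for castrated and blue for intact; the dotted lines part the nuclear, imprinted and snoRNA host transcripts. The castrated points lie wholly below the intact points for Kcnq1ot1, Snhg1, Snhg3, Snhg12 and Epb41l4aos, while intact 1 is far above the rest for Meg3 and intact 2 for H19.

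Levels were compared between the transcripts only per length, as TPM (counts scaled to gene length and library size) computed from the gene lengths in the table. Malat1 had the highest mean, 553 TPM over the 5 samples (range 383 to 704), followed by Gas5 with 513 TPM (262 to 791) and Snhg1 with 377 TPM (167 to 714). A middle tier was formed by Snhg12 with 96.3 TPM (53.8 to 180), Snhg3 with 82.2 TPM (41.9 to 152), Epb41l4aos with 64.6 TPM (31.6 to 114) and Neat1 with 41.3 TPM (17.6 to 81.9). H19 averaged 11.4 TPM (1.0 to 38.8), Meg3 5.76 TPM (1.63 to 18.7) and Kcnq1ot1 0.748 TPM (0.514 to 1.05). Of the 9 pairs of neighbours in this order, 8 had overlapping ranges, and only Meg3 and Kcnq1ot1 did not. The length of Kcnq1ot1 in the table is 83.436 kb, as the transcript is unspliced, against 0.466 kb for Snhg1. Within the groups the top of the order was not the same, as mean TPM was 664 ± 180 (SD, n = 2) for Gas5, 642 ± 102 for Snhg1 and 585 ± 168 for Malat1 in intact tissue. In castrated tissue it was 531 ± 158 (SD, n = 3) for Malat1, 412 ± 145 for Gas5 and 199 ± 46.9 for Snhg1. In counts the picture differed, as Malat1 ranked 24 and Neat1 308 by mean CPM among all genes of the table, while Snhg1 ranked 3221.

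**Figure D2:**
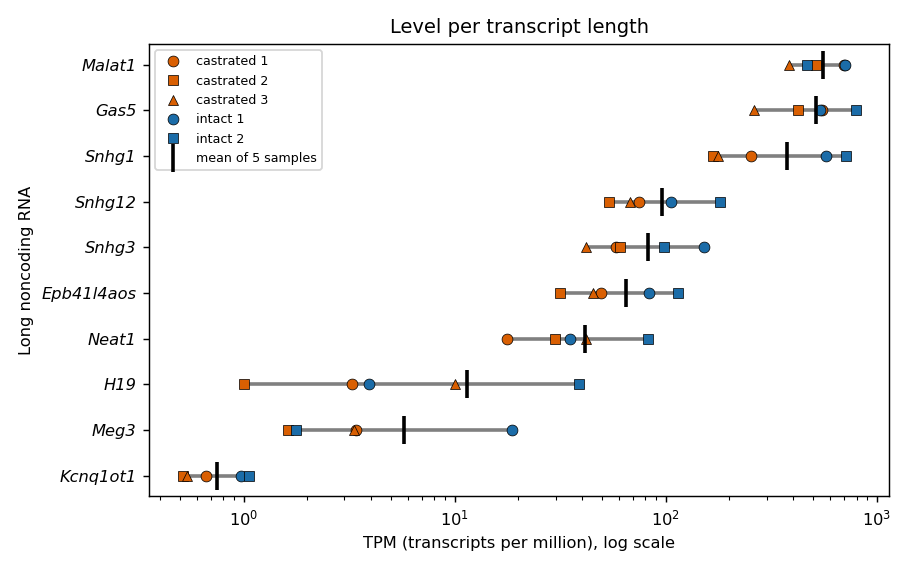
TPM of each long noncoding RNA on a log axis, ordered by the mean of the 5 samples (black bar), with a grey line from the lowest to the highest sample and 1 point per sample. Malat1, Gas5 and Snhg1 share the top of the scale with overlapping ranges, and Kcnq1ot1 lies below 1.1 TPM in every sample.

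Malat1 and Neat1, the nuclear body RNAs, are neighbours on chromosome 19 of mm10, both on the minus strand, Malat1 at 5795690 to 5802672 and Neat1 at 5824710 to 5845480. Malat1 was counted at 2073, 1514 and 1152 CPM in castrated 1, 2 and 3 and at 1990 and 1757 CPM in intact 1 and 2. The groups overlapped, with castrated 1 the highest sample of all and castrated 3 the lowest. The mean was 1580 ± 464 CPM (SD, n = 3) in castrated and 1873 ± 165 CPM (SD, n = 2) in intact tissue, a log2 fold change of -0.25 with an SE of 0.38. This value ran from -0.49 without castrated 1 to -0.057 without castrated 3, and was -0.37 without intact 2. With all samples the Benjamini-Hochberg adjusted p of Malat1 was 0.795 in edgeR's quasi-likelihood test, and it had the smallest difference of the 10. Neat1 was counted at 155, 263 and 375 CPM in castrated samples and at 296 and 918 CPM in intact samples. Only intact 2 was high, and castrated 3 exceeded intact 1. Its log2 fold change was -1.20 with an SE of 0.60 and an adjusted p of 0.412 in edgeR's quasi-likelihood test, and this shrank to -0.20 without intact 2.

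Proteins that reside in these bodies were examined beside the RNAs. Of 15 nuclear speckle proteins tested, 7 were lower in castrated tissue at an unadjusted p under 0.05 and 0 were higher, 11 had all castrated samples below both intact samples, and the median log2 fold change was -0.58, or -0.41 without intact 2. Leaving out any 1 sample gave 3 lower proteins (without castrated 3) to 9 (without intact 1). Among all genes 5.93% were lower at that p, 8.29% were higher and 16.1% had the castrated samples below both intact samples. They included Srsf5, a splicing factor, with 258, 237 and 324 CPM in castrated and 495 and 692 CPM in intact samples. Srrm2, a scaffold protein of speckles, had 400, 381 and 392 CPM in castrated and 661 and 956 CPM in intact samples. Both had all castrated samples below both intact samples, as did Pnn and Srsf7, 2 further splicing proteins with log2 fold changes of -0.98 and -0.91. Of 14 paraspeckle proteins tested, 4 were lower, among them Tardbp at -0.82, Cpsf6 at -0.76 and Ewsr1 at -0.60, and 0 were higher, beside the same 5.93% and 8.29% of all genes, with a median of -0.28, or -0.19 without intact 2. The count of 4 fell to 3 without castrated 2, to 0 without castrated 3 and to 1 without any one of the others. Cpsf6, a factor of RNA 3′ end processing, had 91.8, 117 and 83.8 CPM in castrated and 171 and 159 CPM in intact samples. No protein of either list passed the adjusted threshold.

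Meg3, H19 and Kcnq1ot1 lie at imprinted loci, and their 5 samples spread in 3 different ways. Meg3 is at 109540996 to 109571729 on the plus strand of chromosome 12. It was counted at 18.7, 8.90 and 18.6 CPM in castrated samples and at 98.0 and 12.4 CPM in intact samples. Intact 1 alone was high, and intact 2 lay within the range of the castrated samples. H19 is at 142575530 to 142578146 on the minus strand of chromosome 7 and had 3.18, 0.965 and 9.84 CPM in castrated and 3.63 and 47.8 CPM in intact samples. Here intact 2 alone was high, and intact 1 lay within the castrated range. For H19 the standard deviation exceeded the mean in intact tissue, 25.7 ± 31.3 CPM (SD, n = 2), as it did for Meg3 at 55.2 ± 60.6 CPM (SD, n = 2). Their log2 fold changes were -1.84 (SE 0.85) for Meg3 and -2.46 (SE 1.31) for H19, with adjusted p of 0.391 and 0.437 in edgeR's quasi-likelihood test. Each reversed without its high sample, Meg3 to 0.33 without intact 1 and H19 to 0.32 without intact 2, while Meg3 was at -2.71 without intact 2 with an unadjusted p of 0.00283 (adjusted p 0.348, edgeR's quasi-likelihood test).

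Kcnq1ot1, at 143213111 to 143296547 on the minus strand of chromosome 7, was lower in castrated tissue than in either intact sample. It was counted at 23.5, 18.1 and 19.4 CPM in castrated 1, 2 and 3 and at 32.8 and 47.5 CPM in intact 1 and 2. The means were 20.3 ± 2.82 CPM (SD, n = 3) and 40.1 ± 10.4 CPM (SD, n = 2), a level 1.97-fold higher in intact tissue. Its log2 fold change was -0.98 with an SE of 0.26, an unadjusted p of 0.0121 and a Benjamini-Hochberg adjusted p of 0.320 in edgeR's quasi-likelihood test. Without intact 2 the value was -0.73, with an unadjusted p of 0.0491 in edgeR's quasi-likelihood test. Kcnq1, a potassium channel gene, spans the same stretch on the opposite strand, and the strand setting of the counting is not given in the sources used here, so reads from its introns cannot be told apart from Kcnq1ot1. Kcnq1 itself had 35.5, 57.6 and 58.1 CPM in castrated and 92.7 and 24.1 CPM in intact samples. It was thus highest in intact 1 and lowest in intact 2, and the groups overlapped.

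The imprinted genes around these loci showed no common direction. Of 16 protein-coding or noncoding neighbours in the same imprinted clusters, 10 passed the filter on low counts. At an unadjusted p under 0.05, 0 were lower and 0 were higher in the fit of all 5 samples, beside 5.93% and 8.29% of all genes. The 0 higher did not hold without intact 1. The median log2 fold change was 0.05. The sign of this median rested on single samples, as it was -0.31 without intact 2 and 0.67 without intact 1. Cd81, a membrane protein encoded near Kcnq1, had the highest counts, with 477, 327 and 337 CPM in castrated and 302 and 249 CPM in intact samples. All castrated samples lay above both intact samples, and its log2 fold change was 0.47 with an adjusted p of 0.484 in edgeR's quasi-likelihood test. Rian, the noncoding RNA downstream of Meg3, was picked after its values were seen and had 16.7, 9.17 and 21.6 CPM in castrated and 32.2 and 9.81 CPM in intact samples. Intact 1 was again the highest, by a smaller margin than for Meg3. Igf2, the growth factor gene beside H19, and Dlk1, a Notch ligand gene beside Meg3, failed the filter on low counts, with at most 1.21 and 2.39 CPM, and were likewise picked after their values were seen. Of 13 imprinted genes tested elsewhere in the genome, 2 were lower and 2 higher at an unadjusted p under 0.05, beside 5.93% and 8.29% of all genes. None was lower at that p without any one of the castrated samples. The median log2 fold change of these genes was 0.26, and it was 2.19 without intact 1 and -0.27 without intact 2. Airn, the noncoding RNA of the Igf2r locus, had 6.87, 8.63 and 8.87 CPM in castrated and 9.32 and 114 CPM in intact samples. Mest, a hydrolase gene expressed from the paternal copy, had 151 CPM in intact 2 and 1.5 to 8.10 CPM in the other 4 samples. In both genes intact 2 alone stood far above the rest, as in H19, and without it the log2 fold change went from -2.93 to -0.24 for Airn and from -4.04 to 0.22 for Mest. Ndn, a growth suppressor gene, had 10.2, 15.6 and 17.5 CPM in castrated and 3.05 and 1.44 CPM in intact samples. Grb10, an adaptor of receptor tyrosine kinases, had 40.8, 28.5 and 63.1 CPM in castrated and 21.2 and 13.2 CPM in intact samples. Ndn and Grb10 were thus higher in every castrated sample, and without intact 2 Ndn alone of the pair was at an unadjusted p under 0.05.

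The 5 snoRNA hosts of the set (Gas5, Snhg1, Snhg3, Snhg12 and Epb41l4aos) all had fitted values below 0. The median of their log2 fold changes was -1.33, and 4 of 5, all but Gas5, reached an unadjusted p under 0.05, each with no overlap between groups, beside 5.93% and 16.1% of all genes in that direction. Without intact 2 the median was -0.95 and 2 of the 5, Snhg1 and Snhg3, were lower at that p, beside 1970 genes in either direction.

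Snhg1, whose spliced RNA is counted over 0.466 kb at 8723487 to 8726326 on the plus strand of chromosome 19, had the largest difference of the 5. It was counted at 50.2, 33.0 and 35.6 CPM in castrated 1, 2 and 3 and at 108 and 179.6 CPM in intact 1 and 2. Both intact samples lay well above the highest castrated sample, and the mean was 3.63-fold higher in intact tissue. Its log2 fold change was -1.86 with an SE of 0.32, an unadjusted p of 0.00174 and a Benjamini-Hochberg adjusted p of 0.320 in edgeR's quasi-likelihood test. Over 13 settings of the processing, the log2 fold change ran from -2.16 to -1.48 and the adjusted p from 0.000125 to 0.750.

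Snhg3 and Snhg12 lie near each other on chromosome 4, Snhg12 at 132308678 to 132311024 on the plus strand and Snhg3 at 132351933 to 132353686 on the minus strand. Snhg3 had 10.8, 11.2 and 7.84 CPM in castrated and 26.8 and 22.9 CPM in intact samples. It was the one snoRNA host of the 5 that was not highest in intact 2, and the groups did not overlap. Its log2 fold change was -1.32 with an SE of 0.29 and an unadjusted p of 0.00494 (adjusted p 0.320, edgeR's quasi-likelihood test), and it kept -1.47 without intact 2. Snhg12 had 19.1, 13.7 and 17.4 CPM in castrated and 25.6 and 58.5 CPM in intact samples. The castrated samples were close together and intact 2 was far above intact 1. The log2 fold change of Snhg12 was -1.33 with an SE of 0.40, and -0.66 without intact 2. Its unadjusted p was 0.0195 (adjusted p 0.323) in edgeR's quasi-likelihood test, 0.0638 without castrated 2 and 0.0519 without castrated 3.

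Epb41l4aos, transcribed from 33794892 to 33795989 on the plus strand of chromosome 18, beside the gene Epb41l4a on the other strand, had 9.0, 5.74 and 8.38 CPM in castrated and 14.5 and 26.4 CPM in intact samples. The groups did not overlap, and the mean was 2.65-fold higher in intact tissue. Its log2 fold change was -1.41 with an SE of 0.40 and an unadjusted p of 0.0151 (adjusted p 0.320, edgeR's quasi-likelihood test), and -0.95 without intact 2, with an unadjusted p of 0.0722. Gas5, from 161034916 to 161038539 on the plus strand of chromosome 1, had the highest TPM of the 5 by the mean over all samples, with a range that overlapped that of Snhg1, and was the only one of the 5 whose groups overlapped. It was counted at 174, 132 and 83.5 CPM in castrated and at 161 and 315 CPM in intact samples. Castrated 1 exceeded intact 1, while intact 2 was the highest sample and castrated 3 the lowest. The log2 fold change of Gas5 was -0.88 with an SE of 0.43 and an adjusted p of 0.406 in edgeR's quasi-likelihood test, and it was -0.35 without intact 2.

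The rows found for small RNAs embedded in 5 of these transcripts held no counts. Snord47 in Gas5, Snord22 in Snhg1, Snora16a, Snora44, Snora61 and Snord99 in Snhg12, Mir770 in Meg3 and Mir675 in H19 were at 0 in all 5 samples, which allows up to 3 counts per library, or 0.105 to 0.161 CPM, by counting error alone. The values of Gas5, Snhg1 and Snhg12 thus say nothing of the levels of these snoRNAs.

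Most other noncoding snoRNA hosts were also lower in castrated tissue. Of 16 listed, 15 were in the table and 14 were tested; Snhg7 was not analysed here and Snhg9 failed the filter on low counts. At an unadjusted p under 0.05, 10 of 14 were lower and 0 were higher, and 11 of 14 had all castrated samples below both intact samples, beside 5.93% and 16.1% of all genes. The median log2 fold change was -1.37, and leaving out any 1 sample gave medians from -1.66 to -1.28 and 8 to 10 lower hosts. Dancr, an RNA first described as a brake on differentiation, had 4.92, 2.57 and 2.34 CPM in castrated and 15.1 and 12.5 CPM in intact samples. Snhg4 had 11.2, 9.01 and 8.62 CPM in castrated and 39.0 and 33.8 CPM in intact samples, with a log2 fold change of -1.92 and an SE of 0.25. Snhg20 had 6.32, 5.04 and 5.90 CPM in castrated and 18.5 and 20.5 CPM in intact samples. In these 3 hosts both intact samples were close together and well above the castrated samples. Zfas1, an abundant host antisense to the start of a zinc finger gene, had 52.7, 28.7 and 39.9 CPM in castrated and 76.8 and 231 CPM in intact samples. Intact 2 was far above intact 1, although the groups did not overlap. Exceptions picked after their values were seen were Snhg18, with 17.7, 17.0 and 18.2 CPM in castrated and 19.3 and 14.2 CPM in intact samples, and Snhg11, which ranged from 16.6 CPM in intact 2 to 402 CPM in intact 1.

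**Figure D3:**
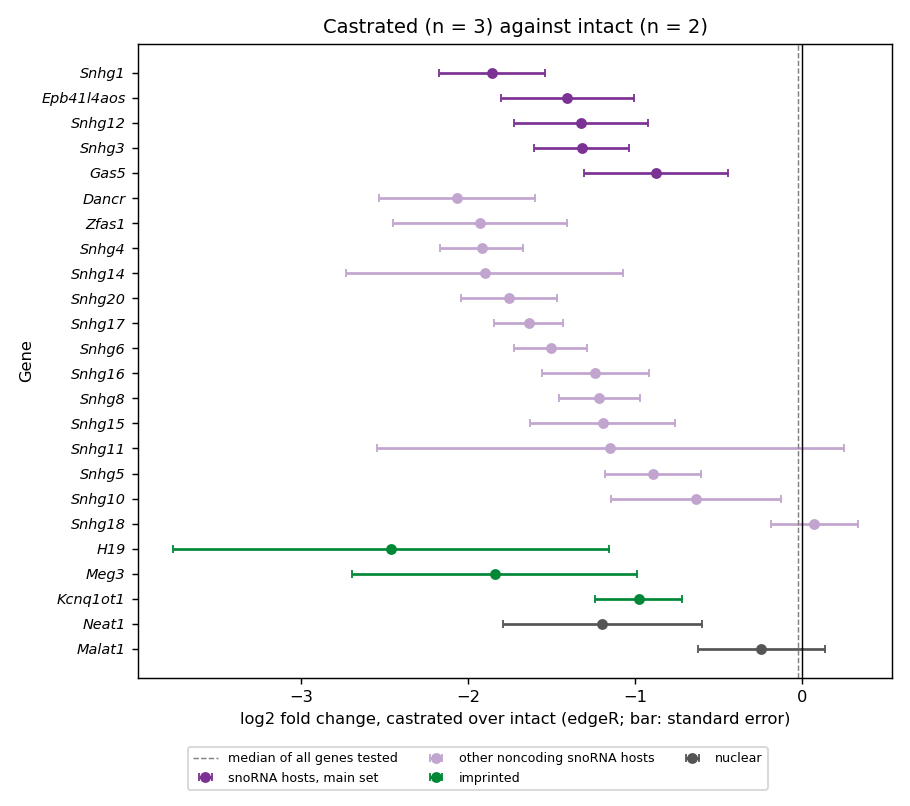
Log2 fold change of castrated over intact tissue with its standard error for the 10 long noncoding RNAs and 14 other noncoding snoRNA hosts, from edgeR; the dashed line is the median of all genes tested at -0.027. Values of the snoRNA hosts lie between -2.07 and 0.07, with Snhg18 the only one above 0, and H19, Meg3 and Snhg11 have the widest bars.

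Protein-coding genes that carry snoRNAs had a smaller median difference, which was not itself tested. Of 15 tested, all 15 had a log2 fold change below 0, 5 were lower at an unadjusted p under 0.05 (5.93% of all genes), 0 were higher (8.29%), and the median was -0.36, or -0.61 without intact 1. Taf1d, a subunit of the factor that starts ribosomal RNA transcription, had 57.4, 40.1 and 34.6 CPM in castrated and 130 and 145 CPM in intact samples. Nop56, a core protein of snoRNA particles, had 79.1, 73.1 and 53.3 CPM in castrated and 159 and 138 CPM in intact samples. Ppan, a ribosome assembly factor, had a log2 fold change of -1.10, and Eef1b2, a translation elongation factor, of -1.51, the latter with 2237 CPM in intact 2 and 427 to 655 CPM elsewhere. The groups did not overlap in these 4 genes. Nonsense-mediated decay removes spliced host transcripts. Among 10 of its factors, 0 were lower (5.93% of all genes) and 0 were higher (8.29%) at an unadjusted p under 0.05. Of the fits that left out 1 castrated sample, only that without castrated 1 gave any at that p. There 1 factor was lower, beside 2286 genes in either direction. In 4 factors all castrated samples lay below both intact samples (16.1% of all genes), and the median log2 fold change was -0.22. Smg1, the kinase of this pathway, had 127, 173 and 157 CPM in castrated and 179 and 285 CPM in intact samples. For Upf1, the helicase of the pathway, the log2 fold change was -0.22.

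Genes next to the long noncoding RNAs in the genome were examined as well. Of 9 neighbours tested, 0 passed an unadjusted p of 0.05 in the fit of all 5 samples, beside 5.93% of all genes lower and 8.29% higher. This count of 0 did not hold without intact 1. The median log2 fold change was -0.21, and it ran from -0.32 without castrated 2 to -0.070 without castrated 1. Slc3a2, an amino acid transporter gene next to Snhg1, had 195, 243 and 217 CPM in castrated and 244 and 174 CPM in intact samples. Wdr74, a ribosome assembly gene on the other side of Snhg1, had 27.5, 24.5 and 23.2 CPM in castrated and 32.6 and 32.3 CPM in intact samples. The castrated samples lay below both intact samples in Wdr74 and between them in Slc3a2. Zbtb37, which starts beside Gas5, had 25.8, 27.9 and 28.2 CPM in castrated and 28.1 and 58.5 CPM in intact samples, with intact 2 alone high as in Gas5. Beside Malat1 and Neat1, Frmd8 had a log2 fold change of -0.08. Rcc1 and Trnau1ap, beside Snhg3 and Snhg12, had -0.31 and -0.01, and Epb41l4a, opposite Epb41l4aos, had -0.37.

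Among 16 other long noncoding RNAs tested, of 27 listed, 4 were lower at an unadjusted p under 0.05 (5.93% of all genes), 0 were higher (8.29%), and the median of the log2 fold changes was -0.53. Without castrated 2 or castrated 3, 2 were lower. Firre, a nuclear RNA of the X chromosome, had 52.8, 44.6 and 53.8 CPM in castrated and 174 and 237 CPM in intact samples. The groups were far apart, with a log2 fold change of -2.03, an SE of 0.22 and an unadjusted p of 0.000189 (adjusted p 0.320, edgeR's quasi-likelihood test). Mir17hg, the host of a microRNA cluster that MYC activates, had 3.0, 2.95 and 2.48 CPM in castrated and 11.3 and 20.7 CPM in intact samples. Jpx, an activator of Xist, and Tug1, a broadly expressed nuclear RNA, had log2 fold changes of -1.66 and -0.55. For Tug1 the values were 145, 149 and 142 CPM in castrated and 221 and 204 CPM in intact samples. The groups did not overlap in any of these 4 RNAs.

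Ribosomal protein and proliferation genes also had fitted values below 0, and their part in the difference was not tested. All 77 ribosomal protein genes had a log2 fold change below 0, 23 were lower at an unadjusted p under 0.05 (5.93% of all genes) and 43 had all castrated samples below both intact samples (16.1%). The median was -1.08, which shrank to -0.21 without intact 2, and the count of 23 became 1 without intact 2, castrated 2 or castrated 3, 7 without castrated 1 and 75 without intact 1. Relative to the intact mean of each gene, these 77 genes had a median of -0.76 in intact 1, close to -0.83, -1.03 and -0.79 in the castrated samples. The other noncoding snoRNA hosts stood at -0.0061 in intact 1 and at -1.05, -1.42 and -1.64 in the castrated samples on the same scale. For the 5 snoRNA hosts of the set the medians were -0.43 in intact 1 and -1.11, -1.50 and -1.43 in the castrated samples, so intact 1 lay above all castrated samples for both host groups, as it did by a smaller margin for the ribosomal protein genes. All 6 proliferation genes were lower in castrated tissue at an unadjusted p under 0.05, and their sum was 55.5, 77.4 and 104 CPM in castrated and 247 and 333 CPM in intact samples, with Mki67 the most abundant. All 6 were lower at that p whichever sample was left out.

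**Figure D4:**
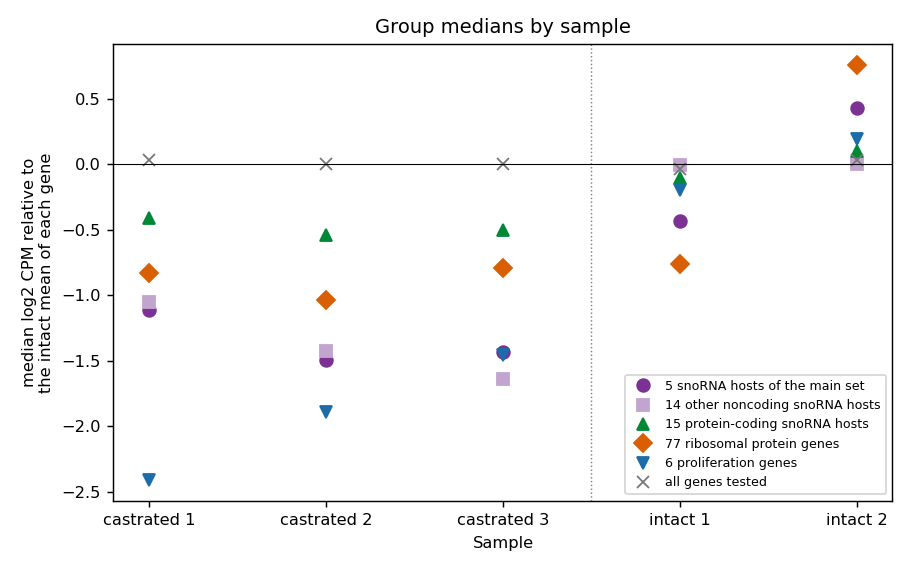
Median over the genes of each group of log2 CPM relative to the mean of both intact samples for that gene, by sample; with 2 intact samples, their values mirror each other by construction. Both groups of noncoding snoRNA hosts lie below -1 in all castrated samples and at -0.43 and -0.0061 in intact 1, while the ribosomal protein genes are at -0.76 in intact 1, near their castrated values.

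Markers of other cell types also differed, mostly in the opposite direction, and their part in the values above was not tested. Of 9 macrophage markers, 8 were higher in castrated tissue at an unadjusted p under 0.05 (8.29% of all genes), with a sum of 2621, 7347 and 2989 CPM against 1100 and 1665 CPM and Lyz2 the most abundant. Of 7 smooth muscle markers, 6 were higher, with a sum of 407, 706 and 649 CPM against 245 and 156 CPM and Acta2 the most abundant. Of 10 adipocyte markers, 7 were higher, with a sum of 54.3, 716 and 673 CPM against 36.2 and 91.1 CPM and Fabp4 the most abundant. Of 5 neuroendocrine markers tested, 4 were higher, with a sum of 18.8, 26.7 and 30.1 CPM against 1.79 and 2.23 CPM and Chgb the most abundant. Fibroblast markers were higher in 3 of 7, endothelial markers in 2 of 5 and basal epithelial markers in 1 of 5, with Dcn, Cdh5 and Dst the most abundant. Of 8 luminal markers, 1 was lower (5.93% of all genes), and of 6 T cell markers none passed. Several of these counts rested on single samples. The count of 4 neuroendocrine markers was the same whichever castrated sample was left out. With intact sums of 1.79 and 2.23 CPM, however, most of these markers passed the filter on low counts only with the help of castrated samples. Their direction is therefore no independent support. Without intact 2 the median log2 fold change went from 0.41 to -0.20 for fibroblast and from -0.19 to 2.51 for basal epithelial markers. For T cell markers it went from 0.60 to 3.42, and for macrophage markers from 1.56 to 1.70. Adipocyte markers were higher at an unadjusted p under 0.05 in 1 of 3 tested without castrated 2 or castrated 3. The counts of macrophage and adipocyte markers at that p also fell without either intact sample. Their median log2 fold changes were then 1.42 and 9.86 without intact 1 and 1.70 and 9.50 without intact 2. Endothelial markers gave 0 without castrated 1 or castrated 3, and the luminal marker was lost without any one of the castrated samples. The median log2 fold change of the endothelial markers was 0.73, and it was 0.44 without intact 2 and 1.17 without intact 1. The endothelial and fibroblast counts at that p also fell without intact 2. The skeletal muscle markers, of which Myh1 was at 0 in all samples, summed to at most 5.41 CPM.

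For 4 of the long noncoding RNAs, the 3 tested genes with the closest pattern over the 5 samples were sought, by the root mean square difference of log2 CPM centred on each gene's mean. For Malat1 they were AW209491, Zfp459 and Agfg1, at 0.029 to 0.045, while Malat1 itself spanned 0.85 on the log2 scale. For Gas5 they were Map2k3os, Itga6 and Gm16062, at 0.14 to 0.16, with a span of 1.92 for Gas5. For Meg3 they were Cftr, Kcnh1 and Ptprv, at 0.28 to 0.34, with a span of 3.45. Cftr, a chloride channel gene, had 3.77, 2.57 and 4.14 CPM in castrated and 16.4 and 2.18 CPM in intact samples. Like Meg3, Cftr was high in intact 1 alone. For H19 they were Olfm4, Igsf11 and Dsg1c, at 0.69 to 0.71, with a span of 5.51. Olfm4, a secreted glycoprotein gene, had 0.977, 1.13 and 4.73 CPM in castrated and 1.52 and 44.1 CPM in intact samples. Like H19, Olfm4 was high in intact 2 alone. These likenesses rest on 5 points and are a description.

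Intact 2 was the highest sample for 7 of the 10 long noncoding RNAs and for 31.3% of all genes tested. Intact 1 was the highest for Meg3 and Snhg3, and castrated 1 for Malat1. Together the 10 transcripts took 0.259%, 0.197% and 0.173% of all counts in castrated 1, 2 and 3 and 0.285% and 0.319% in intact 1 and 2. Malat1 alone made up 0.212%, 0.149% and 0.115% in the castrated and 0.206% and 0.165% in the intact samples. The share of all 10 was lower in each castrated sample than in both intact samples, while that of Malat1 was highest in castrated 1.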

How the data were processed

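Bulk RNA-seq of prostate tissue from 3 castrated and 2 intact mice was analyzed, grouped by the sample labels, with no sample left out. The deposited values are raw counts per gene, which the authors obtained with HTSeq 2.0.2 after alignment to mm10 by STAR 2.7.9 of reads that Trimmomatic 0.39 had trimmed. The strand setting of the counting is not given in the sources used here. The deposited table also holds gene lengths in kilobases, used only for TPM. The 14612 genes whose CPM exceeded 1 in 2 or more samples were analyzed in edgeR 4.0.16 (R 4.3.3), with TMM scaling and the quasi-likelihood F-test, and p-values were Benjamini-Hochberg adjusted over all of them. A gene was called at an adjusted p under 0.05 with an absolute log2 fold change above 1. The standard error was derived from the fold change and the F statistic. The methods of the paper name TPM as input of this test, but counts were used here. CPM values are scaled by TMM. The procedure was tested on simulated data.

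The transcripts and gene lists were chosen with earlier results of these data known. Besides the 10 transcripts and their neighbours, at most 4 genes per list were named by absolute log2 fold change among those at an unadjusted p under 0.05, otherwise the 3 with the highest CPM, and for 4 transcripts the 3 closest genes. Cell type lists are summarized by counts and sums. Genes picked after their values were seen are marked as such. Some genes that this rule names are not reported here, though they remain in the counts. Coordinates count from 1. No pair of samples held the same library. The labels name replicates without saying more of their source, so p-values measure only the spread between these samples. Alternatives were 2 other scalings, the 20 most counted genes and the 10 transcripts left out of the scaling, 2 other filters, DESeq2 1.42.0, limma 3.58.1 (voom), the replicate number as a block and leaving out each sample.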

Additional observations from a re-analysis of the deposited data

How the results depend on the processing

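With 2 intact samples, 1 sample decided several values. Over the fits that left out 1 sample each, where a lone intact sample is assumed to vary like the castrated ones, edgeR called 0 to 1 genes (1 without intact 1), and 4 to 8 of the 10 long noncoding RNAs were at an unadjusted p under 0.05, beside 930 to 3181 of all genes, with both highest counts without intact 1. The log2 fold change of Meg3 ran from -2.71 to 0.33 and that of H19 from -3.61 to 0.32, each reversing without its high intact sample. The other 8 transcripts stayed below 0 in all 13 settings. DESeq2's Wald test called 989 genes and 3 of the 10 transcripts, at Benjamini-Hochberg adjusted p of 0.000125 for Snhg1, 0.00167 for Snhg3 and 0.0289 for Epb41l4aos, where limma voom called 0 genes with 1654 at an unadjusted p under 0.05 and edgeR 0 with 2079. On data simulated for this design, DESeq2 called more unchanged genes than edgeR or limma voom did and also found more of the changed genes, most of which edgeR missed, so the 0 calls of edgeR do not show that nothing differed. With the replicate block, 2 of the 10, Snhg1 and Neat1, were at an unadjusted p under 0.05, and 940 genes in all. Neat1 was not among the 5 of the main fit, of which Snhg1 alone stayed at that p. However, same-numbered samples are different mice, and their deviations correlated at 0.149 and -0.045 for the 2 shared numbers. Under 2 other scalings, the 20 most counted genes and the 10 transcripts left out of the scaling and 2 other filters, the count of the 10 at that p was again 5.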
